A study of Homo sapiens with 16 samples.

Results

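The comparison described here is that of OCI-AML3 cells treated with all-trans retinoic acid (ATRA) alone against untreated OCI-AML3 cells. OCI-AML3 is an established human acute myeloid leukemia (AML) cell line of the non-promyelocytic kind. The members were chosen by their labels only: of the 16 RNA-seq libraries of the series, the 3 labelled ATRA and the 4 labelled Untreated were compared, and no measured value entered the choice. ATRA was given at 0.1 µM and RNA was taken after 3 h, and no source used here states whether the untreated cells received the vehicle. The 9 other libraries held Am80 alone (3 libraries), and ATRA or Am80 together with GSK-LSD1 and MB3, which inhibit LSD1 and GCN5 (3 libraries each). Of the 62700 genes in the deposited table, the 14709 whose normalized counts averaged 10 or more in these 7 libraries were tested, and they held at least 99.779% of the reads of each library. The design set each retinoid, alone and with the inhibitors, against untreated cells, and the study used it to ask how the response to a pan-receptor agonist compares with that to a RARA-selective one.

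ATRA is an active form of vitamin A. It enters the nucleus and binds the retinoic acid receptors RARA, RARB and RARG, which sit on DNA as pairs with a retinoid X receptor (RXRA, RXRB or RXRG), exchange corepressors for coactivators when the ligand binds, and switch on nearby genes. Among the best known of these genes are the enzymes that destroy retinoic acid, so that the signal limits itself, and in myeloid cells retinoic acid is known for pushing promyelocytic leukemia cells towards granulocytes. The DNA elements bound by the receptor pairs are direct repeats of a short half-site, and the promoters of RARB and CYP26A1 are classic places where repeats with 5 bases between the half-sites were described.

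The libraries held between 11963898 and 17929315 reads in genes for untreated cells and between 17593341 and 23910601 for ATRA. Untreated replicate 4 stood apart from the other untreated libraries: over all tested genes its root mean square log2 difference from them was 0.428 to 0.444, against 0.302 to 0.357 among replicates 1 to 3 and 0.259 to 0.274 among the ATRA libraries. Its 35 listed ribosomal protein genes summed to 860280 normalized counts, against 592610 to 633210 in the other untreated libraries and 612680 to 668110 with ATRA. Its part in the results was not tested beyond leaving it out, so counts of list members that changed on leaving it out are also given without it. Untreated replicate 1 was the highest untreated library in 23 of 23 replication-type histone genes that did not rise. All 12 myeloid markers passed the filter, led by cathepsin G (CTSG) at a mean of 46500 normalized counts in untreated cells, while 2 of 12 T cell, 1 of 11 B cell, 3 of 10 natural killer cell, 1 of 12 erythroid, 3 of 9 megakaryocyte and 2 of 12 fibroblast and epithelial markers did. In untreated cells MPO and CD68 of the myeloid list had means of only 46.85 and 67.48 normalized counts. CD4 of the T cell list had 3978, and NCAM1 of the natural killer cell list had 2682. MS4A1, which encodes CD20, and IGHM had no read in any of the 7 libraries, and the summed B cell list was 32.4 to 49.9 without and 54.0 to 67.5 with ATRA, whose part in the results was not tested. No source says that replicates were separate cultures, so the p-values measure the spread between these libraries, which may be technical. In bulk RNA, fewer cells of a kind and less RNA per cell cannot be told apart.

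To show where retinoic acid receptor elements lie near changed genes, the promoters of RefSeq (build GRCh38.p14, from 250 bases before to 50 bases after each start) were searched on both strands for direct repeats of the half-site AGGTCA or of its variant AGTTCA, its variant GGGTCA or its variant GGTTCA. Repeats with 5 bases between the half-sites (DR5) were found in 31 of 35093 promoters (0.0883%), and in 11 of the 15280 promoters of tested genes (0.072%). Among the promoters of genes that rose with ATRA, 3 of 914 (0.328%) held one, and among those of genes that fell 0 of 486 did. The 3 sites are printed with 6 bases on either side because they lie in CYP26A1, RARB and BATF2, genes whose levels are described below. The capitals mark both half-sites and the 5 bases between them.
CYP26A1: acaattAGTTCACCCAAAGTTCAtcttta
RARB: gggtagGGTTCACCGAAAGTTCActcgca
BATF2: aagcagAGTTCATGTGAGGGTCAggaagg

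The CYP26A1 site (chr10:93073797-93073825, printed from the minus strand) lay 90 bases before the RefSeq start of this plus-strand gene and inside an annotated untranslated exon of a longer GENCODE 29 transcript. The RARB site (chr3:25428204-25428232, plus strand) lay 53 bases before the start of the shorter transcript and within an intron of the longer one. The BATF2 site (chr11:64990284-64990312, minus strand) lay 29 bases before the start of a shorter transcript of that minus-strand gene. It lay inside an annotated GENCODE 29 exon of the gene, whose outer start is at position 64997045. Another 7 tested genes with such a repeat in the promoter (ATXN1L, CFLAR, CYB5R2, HROB, PANK2, PHF8 and PRSS27) were not called, with log2 changes from -0.05 to 0.34. Repeats with 2 bases between (DR2) were in 14 of all promoters (0.0399%), in 5 of the 15280 of tested genes (0.0327%) and in none of the called genes. Repeats with 1 base between (DR1) were in 46 of all promoters (0.131%) and in 22 of tested genes (0.144%). Of the 914 promoters of genes that rose, 1 held a DR1 (0.109%), that of RAP1GAP2. A match describes letters and is not a measured binding site. Promoters of 585 of the 916 genes that rose and 298 of the 430 that fell were in the table, and TGM2, HIC1, RHBDL3, SLC6A12 and ADGRG3 had no entry.

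After 3 h, more genes rose than fell, and the rises were larger. A gene was called when its adjusted p in limma was under 0.05 and its level changed at least 1.5-fold, on the log2(normalized count + 1) scale, which understates the change of genes with low counts. By this rule 916 genes rose (6.23% of those tested) and 430 fell (2.92%), and without untreated replicate 4 these counts were 859 and 424. The rises had a median of 2.15-fold, and 183 of them were at least 4-fold and 33 at least 16-fold. The falls had a median of 1.73-fold, and 8 were at least 4-fold and none at least 8-fold. The ATRA and untreated libraries did not overlap in 892 of the genes that rose and 416 of those that fell, whereas 32.3% of all tested genes showed such a separation. Over all tested genes the median log2 change was -0.02. Of the 3992 genes with at least 1000 normalized counts in untreated cells, 126 rose and 48 fell, so most changes were in genes of lower counts.

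**Figure D1:**
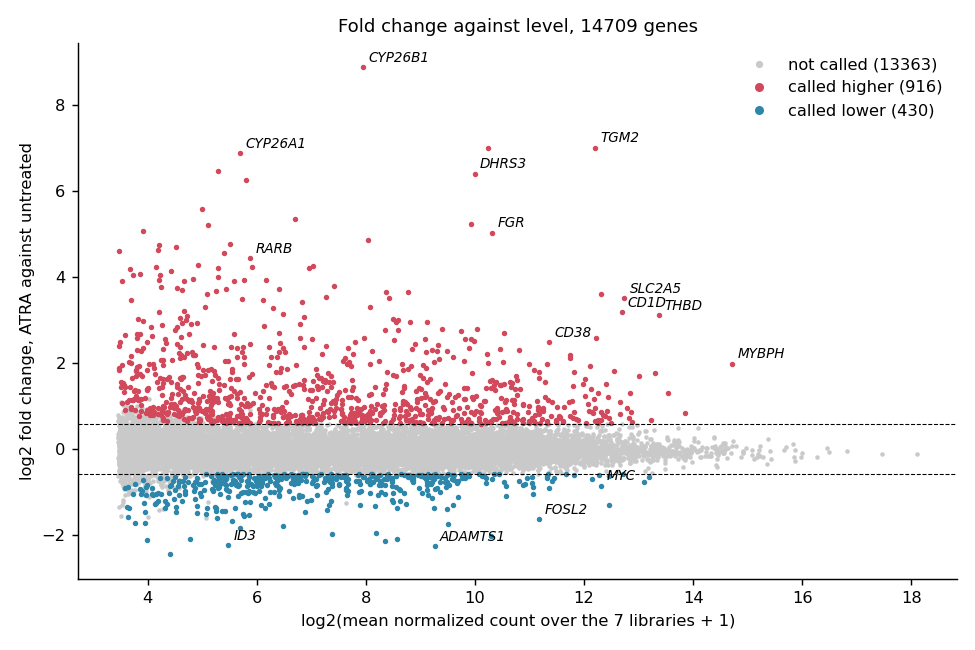
Log2 fold change of ATRA against untreated cells (vertical axis) against the log2 mean normalized count over the 7 libraries (horizontal axis) for 14709 genes, with genes called higher in red, called lower in blue and others in grey, and dashed lines at 1.5-fold. Rises reached 8.89 on the log2 scale and falls -2.46.

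Of the 1346 called genes, 809 that rose and 358 that fell were called again without untreated replicate 4. The 179 that were lost had a median log2 change of 0.65 in size, against 1.04 for those kept, and 116 other genes were called only without it, 50 higher and 66 lower. The named genes that lost the call without it were IRX3, LCOR, MMP8, NOP16 and TNFRSF12A.

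The strand setting of the counting is not given in the sources used here, so reads in the bases that genes on opposite strands share cannot be told apart. In GENCODE 29 this applied to HIC1 (SMG6), TGM2 (RPRD1B), RARB (TOP2B), RHBDL3 (C17orf75), STRA6 (CCDC33), NCOA3 (SULF2), CXCR5 (BCL9L), THBS1 (FSIP1), CASP9 (CELA2B), TP53I3 (FAM228B) and NR1D1 with THRA, and to genes with antisense transcripts such as SHE, IRF1, CEBPB, ID2 and MYB. CYP26A1 shares bases with the unnamed transcript AL358613.3 on its own strand, and reads of NCF1, of the LILR genes and of SLC2A3 may be shared with close copies.

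Enzymes of retinoid metabolism were among the largest rises. In 21 genes no untreated library had more than 3 reads, and these passed the filter through their ATRA libraries only. Their rise is given as a lower bound, against the level that 3 reads per library would give (a mean of 3.50 normalized counts). CYP26B1 (chr2:72129238-72148038), an enzyme that breaks down retinoic acid, had 0, 0, 0 and 1.11 normalized counts in the untreated libraries and 545, 619 and 552 with ATRA. It was thus nearly unread in untreated cells and clearly read in every ATRA library, at least 163-fold higher (adjusted p = 4.4e-18). Its paralog CYP26A1 had no read in any untreated library and 114, 120 and 119 normalized counts with ATRA, at least 33.5-fold higher (adjusted p = 2.6e-17).

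DHRS3, a reductase that turns retinaldehyde back to retinol, had 25.1, 18.5, 32.4 and 33.2 normalized counts in untreated cells and 2283, 2394 and 2342 with ATRA. The groups lay far apart, with a log2 change of 6.41 ± 0.14 (SE, adjusted p = 8.6e-19). STRA6, the cell surface receptor that takes up retinol from its carrier, rose from 20.9, 11.1, 22.4 and 19.9 to 88.7, 109 and 95.8 normalized counts (log2 change 2.37). RBP4, that carrier, rose from between 10.2 and 19.5 to between 34.6 and 42.3 normalized counts (log2 change 1.26). The 2 members that fell were retinaldehyde dehydrogenases, which make retinoic acid: ALDH1A1 fell by 1.04 on the log2 scale and ALDH1A3 by 1.09, the latter from at most 25.1 normalized counts. Of the 15 tested members of the retinoid metabolism list, 5 rose and 2 fell, with and without untreated replicate 4, and the list median was 0.01. Among those that rose, CYP26A1 and CYP26B1 passed the filter through their ATRA libraries only. The fall of ALDH1A3 was not called without ATRA replicate 2 or 3, or with no filter. The 8 others, mostly retinol dehydrogenases, ranged from a log2 change of -0.38 (RDH10) to 0.27 (RDH5), and were not called.

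**Figure D2:**
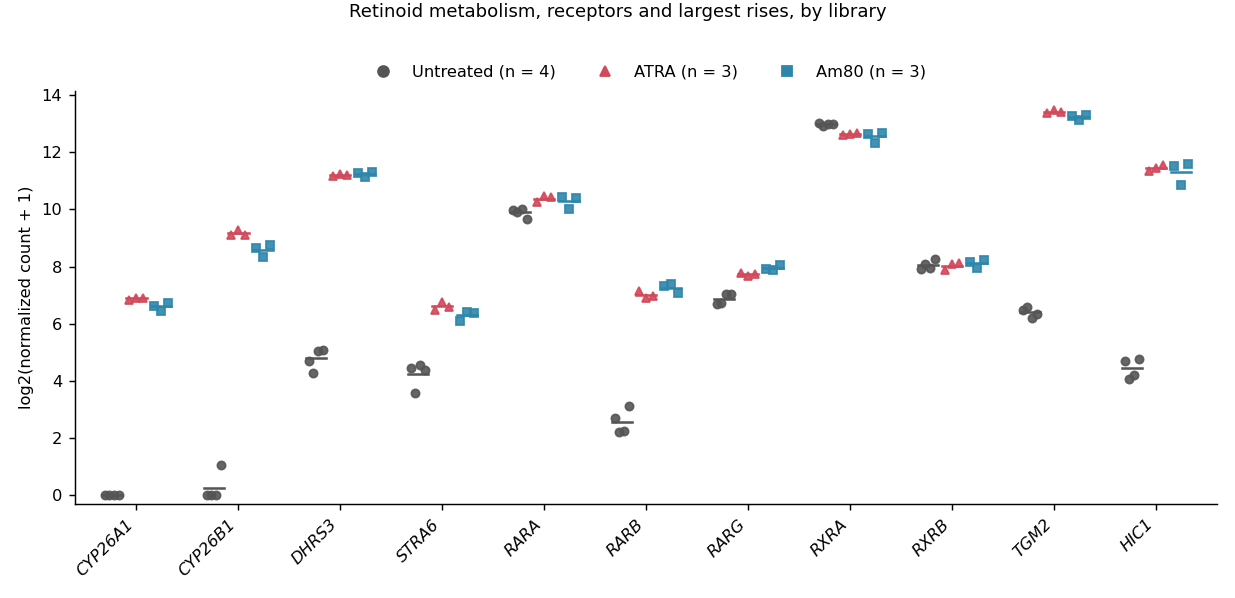
Log2(normalized count + 1) in each library (points) with the group mean (line) for genes of retinoid metabolism, retinoid receptors, TGM2 and HIC1 in untreated (grey, n = 4), ATRA (red, n = 3) and Am80 (blue, n = 3) cells. CYP26A1, CYP26B1 and DHRS3 lie far above untreated cells in every retinoid library, while the means of RARA, RXRA and RXRB differ by less than 1.5-fold.

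Of the receptors, RARB changed most. It had 5.58, 3.69, 3.74 and 7.76 normalized counts in untreated libraries and 142, 119 and 125 with ATRA, which did not overlap (log2 change 4.43 ± 0.19, adjusted p = 1.5e-13). RARG had 103, 104, 130 and 130 normalized counts without and 219, 203 and 211 with ATRA, a log2 change of 0.86 (adjusted p = 2.0e-06). RARA had 1014, 961, 1045 and 819 normalized counts without and 1220, 1404 and 1371 with ATRA. These groups did not overlap either and the adjusted p was 5.8e-04, but the log2 change of 0.48 ± 0.09 was under the 1.5-fold limit. RXRA had 7793 to 8362 normalized counts without and 6298 to 6568 with ATRA, a log2 change of -0.33 (adjusted p = 0.0015) that was also under the limit. RXRB showed a log2 change of -0.02 with overlapping groups, and RXRG had at most 3.45 normalized counts in any library and was not tested.

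Of the 23 tested nuclear receptors, 5 rose and 4 fell, with and without untreated replicate 4. Among those that rose, RARB passed the filter through its ATRA libraries only. Besides RARB and RARG, the fatty acid receptors PPARD and PPARA rose by 1.16 and 0.75 on the log2 scale, and the orphan receptor NR2C1 by 0.66. NR2F2, an orphan receptor that can compete for retinoid elements, fell by 0.97, and the thyroid hormone receptor THRA fell by 0.68. The remaining 2 were the clock repressors NR1D2, which fell by 0.66, and NR1D1, which fell by 0.64. The vitamin D receptor VDR, the oxysterol receptor NR1H3 and PPARG were not called, at log2 changes of 0.15, 0.47 and 0.18.

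Of 24 coregulators, 3 rose (12.5%, against 6.23% of all tested genes) and none fell. The coactivator NCOA3, which binds liganded receptors, rose from 892, 1024, 958 and 671 normalized counts to 2917, 2767 and 2784 (log2 change 1.69 ± 0.10, adjusted p = 3.1e-11). NRIP1, which binds liganded receptors and represses them, rose from 948, 1005, 1032 and 718 to 2279, 1975 and 2047 normalized counts (log2 change 1.19). Both were lowest in untreated replicate 4, and both kept the call without it. LCOR, another ligand-dependent corepressor, showed a log2 change of 0.63 that dropped to 0.46, under the fold limit, without untreated replicate 4.

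A list of 30 genes known from textbooks as retinoic acid targets held 21 tested genes, of which 14 rose and none fell, with a median log2 change of 2.20 against -0.02 over all genes. Without untreated replicate 4, 15 of them rose. Members such as CYP26A1, CYP26B1 and RARB had under 10 normalized counts in every untreated library, and passed the filter through their ATRA libraries only. The share and median of this list are therefore descriptions. TGM2, a transglutaminase that crosslinks proteins and is induced by retinoic acid in many cells, had 87.9, 94.2, 73.5 and 80.9 normalized counts in untreated cells and 10522, 11284 and 10924 with ATRA. No other tested gene had a smaller p: the log2 change was 7.01 ± 0.08 (adjusted p = 4.5e-23). HIC1, a transcriptional repressor, rose from 25.1, 15.7, 17.4 and 26.6 to 2609, 2811 and 2979 normalized counts, a log2 change of 7.01 ± 0.17 (adjusted p = 7.0e-18).

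CD38, a surface enzyme that consumes NAD and is known to be induced by retinoic acid in myeloid cells, rose from between 833 and 975 to between 4860 and 5061 normalized counts (log2 change 2.48 ± 0.07, adjusted p = 3.1e-17). ASB2, a ubiquitin ligase subunit known to be induced by retinoic acid in promyelocytic leukemia cells, rose by 2.06 on the log2 scale from at most 8.86 normalized counts. The adhesion molecule ICAM1, the transcription factor IRF1 and the signal transducer SMAD3 also rose, by 2.21, 2.20 and 1.22. The 7 tested members that were not called were BTG2, CDKN1A, PLAAT4, EGR1, UBA7, PDK1 and TNFSF10, with log2 changes from -0.45 (PDK1) to 0.58 (CDKN1A and PLAAT4).

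Of 24 tested HOX and TALE homeobox genes, 2 rose (8.33%, near the 6.23% of all tested genes) and none fell. PBX4, a TALE factor, rose by 1.63 on the log2 scale. HOXA9, a self-renewal gene of myeloid leukemia, had a log2 change of -0.43 and its partner MEIS1 one of -0.01.

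Several of the largest rises were of genes outside these lists. SPIB, an ETS family transcription factor of B cells and plasmacytoid dendritic cells, rose from between 3.32 and 7.39 to 237, 236 and 230 normalized counts (log2 change 5.35 ± 0.18, adjusted p = 1.5e-15). RHBDL3, a rhomboid-like membrane protein, rose from between 51.6 and 62.8 to between 2174 and 2199 normalized counts (log2 change 5.24). SHE, an adaptor protein with an SH2 domain, the betaine and GABA transporter SLC6A12 and the adhesion receptor ADGRG3 rose by 4.85, 4.77 and 4.57. Each of these genes had at most 62.8 normalized counts in any untreated library, and no untreated library overlapped an ATRA library. SPIB, SLC6A12 and ADGRG3 had under 10 in every untreated library and passed the filter through their ATRA libraries only.

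By difference in mean normalized counts, the 6 largest rises were those of TGM2 and of 5 genes that untreated cells already expressed at means over 1000 normalized counts. MYBPH, a myosin-binding protein, rose from between 11127 and 12458 to between 44220 and 48477 normalized counts (log2 change 1.98). THBD, thrombomodulin, an endothelial and monocyte receptor that blocks clotting, rose from 2516, 2265, 2578 and 2537 to 21125, 21433 and 21780 normalized counts (log2 change 3.12 ± 0.06, adjusted p = 4.1e-19). The fructose transporter SLC2A5 rose from between 1191 and 1390 to between 13958 and 14682, and CD1D, which presents lipids to T cells, from between 1341 and 1715 to between 13270 and 13604. The galactosyltransferase B4GALT5 rose by 1.75 on the log2 scale.

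**Figure D3:**
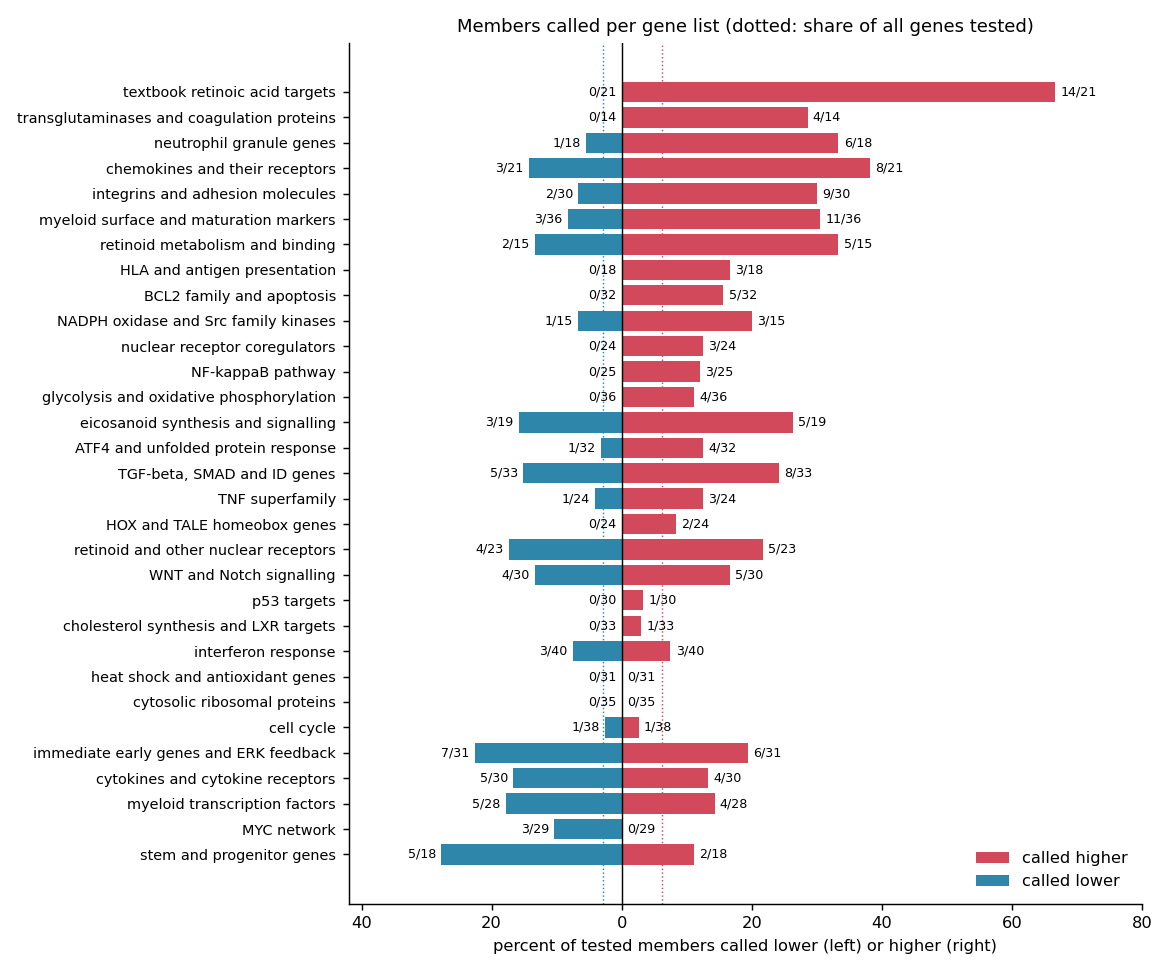
Percent of the tested members of each gene list called higher with ATRA (red, to the right) or lower (blue, to the left), with the numbers of members beside the bars and dotted lines at the 6.23% and 2.92% of all tested genes. The textbook retinoic acid targets stand out with 14 of 21 called higher, some of which passed the filter through their ATRA libraries only. The ribosomal protein and heat shock lists hold none.

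The lists together held 775 different tested genes, of which 115 rose and 55 fell (14.8% and 7.10%, against 6.23% and 2.92% of all tested genes), and without untreated replicate 4 these were 118 and 51. They were chosen with results of these data known, so their shares are descriptions. The count of each single list stands beside the same 6.23% and 2.92% and is likewise a description.

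Among 36 myeloid surface and maturation markers, 11 rose and 3 fell, with a median log2 change of 0.29. Without untreated replicate 4, 11 rose and 2 fell, and with a required mean of 50 normalized counts or more, 7 rose. LILRA5, an activating receptor of monocytes and neutrophils, rose from between 1.11 and 3.69 to 63.6, 59.5 and 71.3 normalized counts (log2 change 4.28 ± 0.20, adjusted p = 4.1e-13). It passed the filter through its ATRA libraries only, so its place in the count is a description. The inhibitory receptor LILRB2 rose by 1.86 and the inhibitory receptor CD300A, at 119 normalized counts in untreated replicate 4 against 65.6 to 75.3 in the other untreated libraries, by 2.05. ITGAM, which encodes CD11b, the integrin chain commonly stained to follow myeloid maturation, had 51.6, 55.4, 37.4 and 54.3 normalized counts without and 76.2, 69.9 and 70.6 with ATRA. The groups did not overlap and the adjusted p was 0.010, but the log2 change of 0.55 was under the fold limit, which it passed at 0.59 without untreated replicate 4. KIT, which encodes CD117, and CD34, both markers of immature cells, had at most 2.88 normalized counts in any library and were not tested. TLR2 and CD163 fell by 0.84 and 0.86, and CLEC7A, at 0.863 to 17.7 normalized counts, showed a log2 change of -1.39 whose call was lost without untreated replicate 4.

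Of 18 neutrophil granule genes, 6 rose and 1 fell, and without untreated replicate 4, 4 rose and 1 fell. The lysosomal protease CTSD rose from between 1216 and 1590 to between 3925 and 4136 normalized counts (log2 change 1.56). SERPINB1, an inhibitor of neutrophil proteases, rose by 0.97, and BPI, a bactericidal granule protein, by 1.44 from at most 9.97 normalized counts. BPI passed the filter through its ATRA libraries only. MMP8, neutrophil collagenase, showed a log2 change of 0.79 with overlapping groups (adjusted p = 0.038), a call lost under 13 of the alternatives tried. Lysozyme (LYZ) fell from 10658, 10420, 10885 and 12446 to 7147, 6702 and 7084 normalized counts (log2 change -0.67 ± 0.07, adjusted p = 7.2e-08). The azurophil granule genes ELANE, PRTN3, AZU1, MPO and CTSG were not called, at log2 changes from -0.37 to -0.14.

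For 28 myeloid transcription factors the counts were 4 up and 5 down, with and without untreated replicate 4. CEBPB, which drives emergency granulopoiesis, rose from 872, 732, 735 and 1200 to 2430, 2404 and 2761 normalized counts (log2 change 1.54 ± 0.15, adjusted p = 4.5e-08). NFE2, a megakaryocyte and erythroid factor also used in granulocytes, rose from between 280 and 330 to between 910 and 985 (log2 change 1.62). KLF2 and EGR3 rose by 1.27 and 1.84. KLF4, a monocyte factor, fell from 290, 320, 320 and 342 to 130, 116 and 136 normalized counts (log2 change -1.32), and GATA2, a progenitor factor, fell by 0.83. CEBPA and SPI1, master regulators of the granulocyte and monocyte lineages, were not called at log2 changes of 0.15 and -0.02, and CEBPE was under the filter.

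Of 15 NADPH oxidase and Src family genes, 3 rose and 1 fell. FGR, a myeloid Src family kinase, had 83.7, 97.9, 72.2 and 90.8 normalized counts in untreated cells and 2777, 2975 and 2769 with ATRA. This separation gave a log2 change of 5.03 ± 0.09 (adjusted p = 7.4e-20). LYN, another such kinase, rose by 0.72, while FYN was not called at -0.39. NCF1, the p47phox organizer of the oxidase, rose from between 801 and 1045 to between 2670 and 3073 normalized counts (log2 change 1.61). The catalytic chains CYBB and CYBA were not called at 0.02 and 0.00.

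Genes for prostaglandin and leukotriene synthesis changed in both directions, 5 up and 3 down of 19 (26.3% and 15.8%, against 6.23% and 2.92% of all tested genes). Among those that rose, PTGES passed the filter through its ATRA libraries only. PTGES, the inducible enzyme that completes prostaglandin E2, had 1.39, 0, 0 and 2.22 normalized counts without and 124, 141 and 114 with ATRA, at least 36.1-fold higher (adjusted p = 4.6e-13). PTGS1, cyclooxygenase 1, rose from 265, 338, 331 and 319 to 1808, 1900 and 1822 normalized counts (log2 change 2.56). ALOX5AP, the helper of 5-lipoxygenase, rose by 1.48, whereas ALOX5 itself fell by 0.67 and the phospholipase PLA2G4A, which releases arachidonic acid, fell by 0.95. PTGER4, a receptor for prostaglandin E2, fell from 480, 464, 531 and 475 to 103, 118 and 107 normalized counts (log2 change -2.14 ± 0.11, adjusted p = 3.8e-12). The inducible cyclooxygenase PTGS2 was not called at -0.41.

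Of 21 chemokines and chemokine receptors, 8 rose and 3 fell, and 9 rose and 3 fell without untreated replicate 4. Most of those that rose had low counts, and only 2 rose when a mean of at least 50 was required. Among them, CXCR5 passed the filter of the main test through its ATRA libraries only. CXCR5, a B cell follicle homing receptor, had 1.39, 1.85, 0 and 0 normalized counts without and 36.6, 46.6 and 34.6 with ATRA, at least 11.2-fold higher. CCL2, a monocyte attractant, rose from between 128 and 204 to between 518 and 601 normalized counts (log2 change 1.79), and CCR1, a receptor for inflammatory chemokines, by 1.15. The neutrophil attractants CXCL1 and CXCL8 fell, by 1.28 and 0.69, and the fractalkine receptor CX3CR1 by 1.03.

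OSM, a cytokine of the gp130 family, rose from between 31.1 and 48.7 to between 196 and 225 normalized counts (log2 change 2.38), and LIF, of the same family, by 1.60. Over the whole list of 30 cytokines and receptors 4 rose and 5 fell (13.3% and 16.7%, against 6.23% and 2.92% of all tested genes). Without untreated replicate 4 these counts were 4 and 4. Among those that fell were the interleukin 1 receptor IL1R1 (log2 change -1.24) and IL7R (-0.99). In the TNF superfamily, 3 of 24 rose and 1 fell (12.5% and 4.17%, against 6.23% and 2.92% of all tested genes). Without untreated replicate 4, 4 rose and 1 fell. Among those that rose, TNFSF15 passed the filter through its ATRA libraries only. TNFSF15 had at most 2.49 normalized counts without and 38.6, 38.0 and 35.3 with ATRA, at least 10.6-fold higher, and NGFR, the low-affinity neurotrophin receptor, rose from between 162 and 218 to between 1251 and 1387 (log2 change 2.79). TNFRSF12A showed a log2 change of -0.76, a call lost without untreated replicate 4 and under 5 other alternatives.

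Of 30 integrins and adhesion molecules, 9 rose and 2 fell, and without untreated replicate 4, 11 rose and 1 fell. ICAM1, the endothelial and leukocyte ligand of the beta 2 integrins, rose from 58.6, 52.6, 54.8 and 59.8 to 256, 286 and 251 normalized counts. ITGAL, the alpha chain of the integrin LFA-1, rose from 852, 864, 867 and 731 to 2263, 2521 and 2311 (log2 change 1.51), and ITGA6 and ITGB3 by 1.87 and 1.78. ITGB2, the chain that ITGAL pairs with, was not called at 0.00.

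Of 40 interferon response genes, 3 rose and 3 fell (7.5% each, against 6.23% and 2.92% of all tested genes). The list median log2 change was 0.08. IRF1, which activates interferon and antigen presentation genes, rose from 445, 451, 494 and 484 to 2155, 2161 and 2151 normalized counts (log2 change 2.20 ± 0.06, adjusted p = 1.1e-16). GBP4, a guanylate-binding protein, rose from between 82.0 and 106 to between 725 and 792 (log2 change 2.99), and GBP2 by 1.18. IFIT1, USP18 and IRF5 fell by 1.46, 0.75 and 0.81, and ISG15, MX1 and OAS1 were not called, at log2 changes of -0.43, 0.11 and 0.35. Of 18 antigen presentation genes 3 rose, CD1D by 3.18, the class I regulator NLRC5 by 0.70 and HLA-F by 0.68, the last with overlapping groups and not called under 10 alternatives. Of 25 NF-kappaB pathway genes 3 rose (12%, against 6.23% of all tested genes), BCL3 by 1.98, REL by 0.94 and CD83 by 0.72.

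Immediate early genes and ERK feedback genes split, with 6 up and 7 down of 31. FOSL2, a FOS family subunit of AP-1, fell from 3132, 3505, 3470 and 2988 to 1043, 1011 and 1075 normalized counts (log2 change -1.65 ± 0.07, adjusted p = 5.5e-14). JUN, FOS and FOSL1, further AP-1 subunits, fell by 1.23, 0.83 and 0.67, while JUND rose by 0.89. MAFF and SGK1 rose by 2.26 and 2.05, and EGR3 by 1.84. The list median was 0.12 and turned to -0.00991 when reads were thinned to the shallowest library, so its sign was not stable across these settings.

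MYC, the growth factor-driven activator of ribosome biogenesis and metabolism, fell from 6563, 5825, 6667 and 6264 to 3425, 3489 and 3535 normalized counts. Every ATRA library lay below every untreated one, with a log2 change of -0.86 ± 0.07 (adjusted p = 4.2e-09). Of 29 tested genes of its network, none rose and 3 fell, MYC, MXI1 (log2 change -0.73) and NOP16 (-0.63), the last not called without untreated replicate 4. The list median was -0.32 against -0.02 over all genes, and 26 of the 29 values were negative. The nucleolar proteins NOP56, NCL and NPM1 were not called, at -0.52, -0.24 and -0.25. The list of 35 ribosomal proteins held no called gene, with a median of -0.07 that was 0.05 without untreated replicate 4.

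In 18 stem and progenitor genes, 2 rose and 5 fell, in the same numbers without untreated replicate 4. CLEC12A, MYC, GATA2, TAL1 and MYB fell, CLEC12A by 1.17 from between 27.9 and 44.3 normalized counts. MYB, needed for progenitor growth, fell from between 7311 and 8262 to between 4980 and 5402 normalized counts, and its log2 change of -0.59 lay at the fold limit and missed it under 7 alternatives. The natriuretic peptide clearance receptor NPR3 rose by 2.46 and the aldo-keto reductase AKR1C3 by 1.28. FLT3, LMO2, SOX4 and BMI1 were not called, at 0.26, 0.00, 0.29 and -0.31.

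Of 38 cell cycle genes, the inhibitor CDKN2D rose by 1.37 and the inhibitor CDKN2B fell by 0.81 (2.63% each, of which the share that fell lies near the background), and without untreated replicate 4, 2 rose and 2 fell. The inhibitor CDKN1A had a log2 change of 0.58, just under the limit, and MKI67, PCNA, CCNB1 and TOP2A ranged from -0.06 to 0.13. Of 32 BCL2 family and apoptosis genes, 5 rose and none fell. BIK, a BH3-only killer protein, rose from 23.7, 37.9, 22.4 and 25.5 to 223, 229 and 249 normalized counts (log2 change 3.08 ± 0.15, adjusted p = 5.8e-13). BMF, also BH3-only, rose by 1.70, the initiator caspase CASP9 by 1.43 and the caspase inhibitor XIAP by 0.84. Of 30 p53 targets 1 rose (3.33%, under the 6.23% of all tested genes), TP53I3, by 1.98, and 2 rose without untreated replicate 4.

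The inhibitors of differentiation, which block basic helix-loop-helix factors, went in opposite directions. ID1 rose from 522, 442, 456 and 741 to 1949, 2135 and 2244 normalized counts (log2 change 1.99), while ID3 fell from 64.1, 70.2, 49.8 and 78.7 to 15.4, 6.90 and 19.4 (log2 change -2.25). ID2 fell by 0.91. In their list of 33 genes of TGF-beta and BMP signaling, 8 rose and 5 fell, with THBS1 and LTBP3 up by 2.15 and 1.88 and BMP2 down by 0.69. Of 30 WNT and Notch genes 5 rose and 4 fell, and 2 fell without untreated replicate 4. The WNT receptor FZD7 and the Notch ligand DLL4 rose by 1.82 and 1.56, and the Notch ligand JAG1 fell by 1.06.

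Of 36 genes of glycolysis and oxidative phosphorylation, 4 rose (11.1%, against 6.23% of all tested genes) and none fell. All 4 act at glucose entry or at fructose 2,6-bisphosphate, the activator of phosphofructokinase: PFKFB4 rose from 199, 201, 247 and 244 to 1116, 1262 and 1198 normalized counts (log2 change 2.42), PFKFB3 by 1.37, and the glucose transporters SLC2A3 and SLC2A1 by 0.93 and 0.85. In the ATF4 and unfolded protein response list of 32, 4 rose and 1 fell (12.5% and 3.125%, against 6.23% and 2.92% of all tested genes). The share that fell lies near the background. DDIT4, an inhibitor of mTORC1, rose by 2.55, EDEM1 by 1.30 and HERPUD1 by 1.09, and TRIB3 fell by 0.76. Of 14 transglutaminases and coagulation proteins 4 rose, among them TGM2, THBD and TGM4, and 5 without untreated replicate 4. Of 33 cholesterol and LXR genes 1 rose (3.03%, under the 6.23% of all tested genes), MYLIP, by 0.86, and 2 rose without untreated replicate 4. None of 31 heat shock and antioxidant genes was called, while without untreated replicate 4 none rose and 1 fell.

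The largest falls were smaller than the largest rises and were led by ADAMTS1, a secreted metalloprotease. It had 964, 898, 976 and 879 normalized counts in untreated cells and 199, 194 and 182 with ATRA, without overlap (log2 change -2.27 ± 0.11, adjusted p = 1.3e-12). BOC, a hedgehog co-receptor, had a log2 change of -2.46 at a mean of 31.5 normalized counts in untreated cells, under the 50 required of the genes named here by rule. RAB7B, a lysosomal trafficking GTPase of monocytes, fell from between 1693 and 2170 to between 434 and 480 (log2 change -2.04). The calcium-activated potassium channel KCNN2, the glutamate transporter SLC1A3, the corepressor TLE1 and the adhesion protein PCDH9 fell by 1.99, 1.96, 1.85 and 1.81.

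In absolute counts, the carbonic anhydrase CA2 fell from 7359, 7462, 7026 and 8398 to 3026, 2862 and 3207 normalized counts (log2 change -1.32), and the transcription factor MEF2D fell from between 9564 and 11562 to between 5980 and 6372 (log2 change -0.78). IRX3, a homeobox factor at 8051 normalized counts in untreated replicate 4 against 5744 to 6498 in the others, showed a log2 change of -0.63 that was -0.53, under the limit, without that library.

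**Figure D4:**
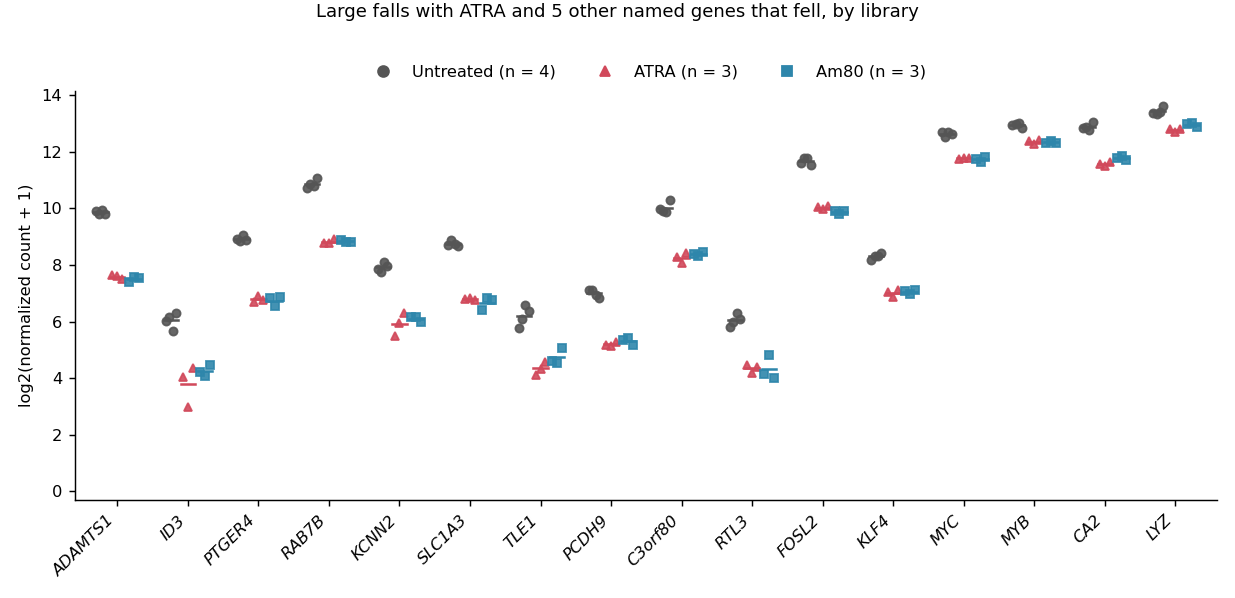
Log2(normalized count + 1) in each library (points) with the group mean (line) for genes with the largest falls and for KLF4, MYC, MYB, CA2 and LYZ, in untreated (grey, n = 4), ATRA (red, n = 3) and Am80 (blue, n = 3) cells. Every ATRA library lies below every untreated one in each gene.

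BATF2, a factor of the AP-1 family with one of the DR5 repeats before the start of a shorter transcript, rose from a mean of 14.5 to 284 normalized counts (log2 change 4.26, adjusted p = 1.9e-13). It was named for that site, after its values were seen. The same holds for BOC, RBP4, ALDH1A1, ALDH1A3, ID2, BMP2, FOS, FOSL1, JUND, KLF2, PPARA, NR2C1, THRA, NR1D1, NR1D2, TAL1, IRF5, IL7R, CXCL8, CX3CR1, CCR1, ALOX5, PLA2G4A and the other list members mentioned beyond the largest changes of each list.

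To place the ATRA response beside that of a receptor-selective compound, the 3 ATRA libraries were compared directly with the 3 libraries of cells given 0.1 µM Am80 for 3 h. Am80 (tamibarotene) is a synthetic retinoid, an amide-linked benzoic acid in place of the polyene chain of ATRA, that prefers RARA. This was 1 pair of compounds at 1 matched dose and time, and 7 of 14709 genes were called (0.0476%), namely EVI2A, PFDN4, ANAPC10, PP7080, CENPQ, GPC2 and TEX14BP. The count was 0 to 86 on leaving out 1 library: 0 without ATRA replicate 1 or 2, untreated replicate 1 or Am80 replicate 1 or 2, 28 when ATRA replicate 3 was left out, 86 when Am80 replicate 3 was and 37 when it was untreated replicate 4. None of the 7 was among the 1346 genes called with ATRA, from which nothing is read, as those are 9.15% of the tested genes, and 0 to 8 of the called genes differed on leaving out 1 library (4 without untreated replicate 4 or ATRA replicate 3, 8 without Am80 replicate 3). In all, 2046 genes had an unadjusted p under 0.05 and DESeq2 called 19.

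Among the genes that rose with ATRA, 94 of 916 had an unadjusted p under 0.05 between the compounds, and 54 of 430 among those that fell. Neither share was above that of all tested genes, 2046 of 14709. At any fold 3 passed the adjusted p of 0.05 (adjusted p = 0.047 each). RGS18, a regulator of G protein signaling in blood cells, and RND3, an atypical small GTPase, were higher with Am80 by 0.53 and 0.55 on the log2 scale, and the log2 difference of the antisense transcript SLC9A3-AS1 was -0.51. The 95% interval of the difference lay inside 1.5-fold for 567 of the 916 genes that rose and 280 of the 430 that fell, so for the remainder these libraries leave room for a difference of that size. The median difference, Am80 minus ATRA, was -0.05 on the log2 scale for the former and 0.03 for the latter. Both sets of genes were called on the same ATRA libraries, so no difference between the compounds is read from these medians.

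CYP26B1 had 545, 619 and 552 normalized counts with ATRA and 404, 326 and 436 with Am80. The log2 difference was -0.57 with an interval from -1.03 to -0.10 (adjusted p = 0.25), and it was not called. CYP26B1 was named for its rise in the same ATRA libraries, so no difference between the compounds is read from it. For HIC1 the log2 difference was -0.12, with an interval from -0.50 to 0.26. For the microRNA host gene MIR124-1HG and the lysophosphatidic acid receptor LPAR2, which rose with ATRA by 2.95 and 0.95, the log2 differences were -0.51 and -0.41 (adjusted p = 0.052 and 0.053).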

How the data were processed

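RNA-seq of OCI-AML3 cells was compared between 3 ATRA and 4 untreated libraries, grouped by their titles. The deposited signal is a count per gene, normalized with DESeq2 size factors: the authors processed the reads with FastQC, cutadapt, STAR and featureCounts (per the submitters' processing notes) and deposited 1 table of counts divided by size factors. The genome build, annotation, strand setting and tool versions are not given in the sources used here. The labels name the NucleoSpin RNA kit with a Thermo cDNA kit and NEBNext Ultra II DNA libraries, whereas the methods of the study name the ZR RNA MiniPrep and TruSeq Stranded mRNA kits. Reads were recovered from the size factors, and every value was whole to within 0.001 reads, or above 1000 reads to within 0.001 per 1000 reads.

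Values were taken as log2(normalized count + 1) and fitted with limma 3.58.1 in R 4.3.3, with a mean-variance trend, 1 coefficient per group and all 16 libraries sharing the estimate of spread. The 14709 genes whose mean over the 7 libraries was 10 or more were tested, of which 14348 were matched by identifier to GENCODE 29, and the Benjamini-Hochberg adjustment ran over all of them in each comparison. Fold changes are stated on the log2 scale with the standard error of the fit. Intervals of a difference are 95% intervals of the fit. Floors of 3 reads per library cover counting error only. The fits were tested on simulated data. Alternatives used edgeR 4.0.16, DESeq2 1.42.0, other pseudocounts, filters and scalings, thinned reads, a replicate block and the leaving out of each library. Promoters were those of RefSeq, GRCh38.p14. Tables were made in Python 3.11.15 with pandas 2.3.3, numpy 2.4.6 and scipy 1.17.1, and figures with matplotlib 3.10.9.

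The named genes were the 12 largest rises and 12 largest falls among called genes whose groups did not overlap, with a gene symbol other than a clone, LOC, LINC or Ensembl name and with 50 or more normalized counts on average in the higher group, the 6 called genes of each direction with the largest difference of means, up to 4 called members of each list by size of change, the retinoid receptors with ITGAM, KIT and CD34, and up to 5 of the genes called with ATRA by smallest p between Am80 and ATRA. Some genes that the rule or the lists hold are not reported here. The comparison, the lists and this rule were chosen with earlier results of these data known. The replicate numbers were checked for pairing: the deviations of same-numbered ATRA and untreated libraries from their group means correlated at 0.037, 0.035 and -0.074, so the numbers were not taken to pair the samples.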

Additional observations from a re-analysis of the deposited data

Results flagged for a closer look

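Of 124 values (named genes and the summed ribosomal protein genes) examined over the 4 untreated libraries, 3 held a library far from the others, where chance alone flags about 1 in 20 groups. STRA6 had 11.08 normalized counts in untreated replicate 2, against 19.94 to 22.42 in the other untreated libraries. ITGAL had 731.2 normalized counts in untreated replicate 4, against 852.1 to 866.9 in the others. SGK1 had 14.95 normalized counts in untreated replicate 3, against 17.55 to 18.13 in the others. All 3 genes rose with ATRA, and each untreated library lay below each ATRA library.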

How the results depend on the processing

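The genes called with ATRA (1346, of which 916 rose and 430 fell) numbered 3562 without a fold limit (1788 and 1774) and 598 at 2-fold and an adjusted p under 0.01 (493 and 105). Requiring a mean of 50 left 606 rises, while the totals under the other alternatives stayed within 1.5 times. Leaving out 1 library gave 1234 to 1414 genes in all, 846 to 948 higher and 388 to 466 lower. The 7 genes called between Am80 and ATRA became 0 with no filter, with only their 6 libraries or at the stricter limits, 3 with quantile normalization, 4 with scaling to total reads, 14 with thinned reads, 19 with DESeq2, 35 with the replicate block, 35 without a fold limit, and 0 to 86 on leaving out 1 library: 0 without ATRA replicate 1 or 2, untreated replicate 1 or Am80 replicate 1 or 2, 86 when Am80 replicate 3 was left out, 37 when untreated replicate 4 was and 28 when ATRA replicate 3 was. Of the genes called with ATRA, 0 differed between the compounds, 1 with the replicate block and 0 to 8 on leaving out 1 library, the highest being 8 when Am80 replicate 3 was left out and 4 when untreated replicate 4 or ATRA replicate 3 was. The cause of these shifts was not tested. With the replicate block 1275 genes were called with ATRA, 854 higher and 421 lower. The samples share only a number, and as no ATRA library has the number 4 the block drops untreated replicate 4 from the contrast. The median of the immediate early list, 0.12, became -0.00991 with thinned reads. Of 124 named genes called, 115 were called under every alternative that gave a value, and 9 were not, among them HLA-F, IRX3, LCOR, MMP8, MYB, NOP16, RGS18 and TNFRSF12A, with no change of sign. Genes under the filter, such as RXRG, KIT and CD34, could not be compared at this depth.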

Other observations

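These genes were chosen after their values were seen. Of 18 tested mitochondrial tRNA genes, 12 rose with ATRA and none fell, against 6.23% and 2.92% of all tested genes. Their log2 changes had a median of 0.85 and ranged from -0.02 to 1.56, and 11 rose without untreated replicate 4. For MT-TA, MT-TF, MT-TI and MT-TM, which were called, the groups overlapped, as ATRA replicate 2 lay within the untreated range. Their summed normalized counts were 3551, 3745, 3571 and 4182 in untreated libraries and 6034, 4418 and 5875 with ATRA. None of the 13 protein-coding genes of the mitochondrial genome was called (log2 changes from -0.19 to 0.18), nor was either ribosomal RNA.

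Of 25 tested replication-type histone genes, a pair rose. H2AC25 rose from a mean of 57.3 to 553 normalized counts (log2 change 3.30) and H2BC26 from 5.78 to 80.7 normalized counts, and both were called without untreated replicate 1 and without untreated replicate 4. Of the 23 others 1 fell, H3C10, and none rose (log2 changes from -1.61 to 0.46), but untreated replicate 1 was the highest untreated library in all 23, which summed to 2203 normalized counts there, 522 to 791 in the other untreated libraries and 641 to 727 with ATRA. Without that library none of the 23 fell and 1 rose, H1-2, and their median log2 change moved from -0.65 to -0.09, so no fall is read from them. Without untreated replicate 4 instead, 2 of the 23 fell.

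Beyond the eicosanoid list, PTGIS, prostacyclin synthase, rose from a mean of 90.4 to 724 normalized counts (log2 change 3.02), PTGDR2, a prostaglandin D2 receptor, from 3.08 to 59.6 (3.95) and SLCO2A1, a prostaglandin transporter, from 5.17 to 82.2 (4.21). PTGDR2 and SLCO2A1 passed the filter through their ATRA libraries only. LRG1, a secreted glycoprotein of neutrophil granules, rose from a mean of 881 to 10712 normalized counts (3.61). The neighboring and overlapping neuropeptide Y receptor genes NPY1R and NPY5R showed log2 changes of -1.34 and -1.54, and reads in the 528 bases that the 2 genes share cannot be told apart.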
